A study of Mus musculus with 26 samples.

Results

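The homeobox developmental regulators outside the Hox clusters were taken as the genes whose symbols have the stem Pax-, Nkx-, Dlx-, Six-, Irx-, Msx-, Barhl-, Emx-, Gbx-, Alx-, Pitx- or Lhx- followed by a number. Lhx1 was left out. The rule found 61 genes of 12 families among the names of the 19022 restriction fragments that carry a capture bait in any of 3 promoter interaction lists, each gene on a fragment of its own. Of these, 58 are also among the 15646 genes with expression values. The other 3, Dlx1as, Dlx6os1 and Pax6os1, are transcripts annotated next to or opposite a homeobox gene. They have no expression values and were followed by their contacts and, where annotated, their promoter windows.

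The data compare wild-type (WT) mouse embryonic stem cells (ESCs), epiblast-derived stem cells (EpiSCs) and Nanog-/- (knockout) ESCs. Promoter Capture Hi-C (PCHi-C), which joins HindIII fragments found near each other in the fixed nucleus and keeps the products with a promoter, has 5 sequencing lanes for WT ESCs, 5 for Nanog-/- ESCs and 2 for EpiSCs, with 2 biological replicates of each cell type. RNA-seq was made from 3 WT ESC, 4 EpiSC and 3 Nanog-/- ESC samples, and ChIP-seq of EpiSCs was not analysed here. The WT ESCs are the line E14Tg2a, and the Nanog-/- ESCs are RCNβH-B(t), a single line derived from it and selected with hygromycin. Both were kept on gelatin in medium with serum and LIF. EpiSCs came from 129S2 embryos and were kept on fibronectin in N2B27 with Activin A and bFGF, so medium, substrate, strain and cell state change together between EpiSCs and ESCs and cannot be told apart. The labels name the strain of all samples as C57BL/6, whereas the culture protocol gives E14Tg2a as 129P2/OlaHsd.

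Homeobox genes encode transcription factors that bind DNA through a homeodomain. The members were taken by symbol and not by protein domain, so they can include genes without a full homeodomain, as with some Pax genes. The families followed here pattern the embryo after gastrulation. Pax and Nkx genes act in neural tube, sclerotome, eye, thyroid and lung, Six-family genes in sensory organs, muscle and kidney, Dlx and Msx genes in face and limb, Lhx and Barhl genes in neuron identity, Irx genes in neural and heart patterning, and Pitx genes in pituitary and hindlimb. Most are silent in pluripotent cells, where their CpG-rich promoters are known as targets of the Polycomb repressors.

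Sequences are shown for the baited promoters of 8 genes whose fragments join other members or other developmental regulators, or whose expression differed most. Each is the 150 bases before the RefSeq gene start in GRCm38.p6, read 5′ to 3′ along the gene, with CpG dinucleotides in capitals. On the plus strand lie Irx2 (chr13:72628670-72628819), Six5 (chr7:19094394-19094543) and Pax2 (chr19:44755602-44755751). On the minus strand lie Irx3 (chr8:91801655-91801804), Nkx2-1 (chr12:56536909-56537058), Nkx2-9 (chr12:56613285-56613434), Six2 (chr17:85688255-85688404) and Six4 (chr12:73113246-73113395).
Irx2: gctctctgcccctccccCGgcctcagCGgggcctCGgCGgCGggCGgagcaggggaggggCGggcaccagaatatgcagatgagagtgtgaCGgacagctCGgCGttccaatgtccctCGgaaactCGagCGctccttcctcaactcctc
Irx3: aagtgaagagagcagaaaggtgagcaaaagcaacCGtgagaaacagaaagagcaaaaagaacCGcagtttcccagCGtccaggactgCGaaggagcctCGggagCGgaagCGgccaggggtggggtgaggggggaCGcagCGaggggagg
Nkx2-1: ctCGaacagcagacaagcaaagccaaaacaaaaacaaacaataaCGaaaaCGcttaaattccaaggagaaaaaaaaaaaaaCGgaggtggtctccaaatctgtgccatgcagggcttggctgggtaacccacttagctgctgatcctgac
Nkx2-9: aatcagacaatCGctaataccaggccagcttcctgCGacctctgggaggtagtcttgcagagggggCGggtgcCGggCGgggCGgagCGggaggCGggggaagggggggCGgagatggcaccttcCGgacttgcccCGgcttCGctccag
Six2: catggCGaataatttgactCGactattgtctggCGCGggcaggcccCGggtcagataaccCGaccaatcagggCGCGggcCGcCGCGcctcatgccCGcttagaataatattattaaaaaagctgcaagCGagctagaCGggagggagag
Six4: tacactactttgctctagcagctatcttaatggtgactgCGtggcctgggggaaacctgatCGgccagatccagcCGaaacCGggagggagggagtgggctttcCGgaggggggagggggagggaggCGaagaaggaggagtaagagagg
Six5: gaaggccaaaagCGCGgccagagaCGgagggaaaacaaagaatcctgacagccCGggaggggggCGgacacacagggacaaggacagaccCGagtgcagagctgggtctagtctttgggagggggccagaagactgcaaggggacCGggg
Pax2: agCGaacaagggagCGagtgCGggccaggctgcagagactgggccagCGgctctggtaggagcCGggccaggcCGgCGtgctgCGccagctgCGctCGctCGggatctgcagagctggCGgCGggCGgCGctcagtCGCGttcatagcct

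The number of CpGs in these windows ran from 4 in Nkx2-1 to 17 in Pax2. Of the members, 42 have a 300-base RefSeq promoter window, from 250 bases before to 50 after the gene start. Their median GC content was 61%, against 58% over 10653 genes with RPKM values and such a window. The observed-to-expected CpG ratio was over 0.6 in 27 of the 42 (64.3%), against 54.1% of those genes. TAATTA, a core that many homeodomains bind and that reads the same on both strands, was in 4 of the windows (9.52%), against 4.15%. Among these 4 were the windows of Dlx6os1 and Pax6os1, which have no RPKM value and so are not among the 10653 genes. TATAAA, searched on both strands, was in 2 (4.76%), against 11.5%. These are descriptions of the windows and carry no test.

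Most of the members had low RNA levels. The deposited expression value is the authors' median RPKM (reads per kilobase of gene, scaled to the mapped reads) of each group, so no spread between samples can be given and no difference was tested. The median RPKM of the 58 members was 0.118 in WT ESCs, 0.358 in EpiSCs and 0.262 in knockout ESCs, against 3.93, 8.58 and 4.23 over all genes. In all 3 states 34 of the 58 members (58.6%) were under 1 RPKM, against 29.3% of all genes. None of the Alx and Emx genes reached 1 RPKM in any state, and Pax4, a factor of the pancreatic islet, and Lhx4, a factor of pituitary and motor neurons, were listed at 0 in each. The members at 10 RPKM or more numbered 3 in each state, among them Six4 and Gbx2 in both ESC types, and Six5 and Irx3 in EpiSCs.

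In WT ESCs the highest level belonged to Six4, of muscle and sensory placodes, with 16.6 RPKM. Gbx2, a factor of the midbrain-hindbrain boundary that is also known from naive ESCs, had 10.4, and Nkx6-2, of oligodendrocytes and motor neuron progenitors, had 5.26. Among the highest in EpiSCs were Six5 (32.6 RPKM), Irx3 (21.3), Six4 (6.96), Nkx6-2 (6.2) and Irx5 (5.91). In Nanog-/- ESCs Gbx2 was the highest (37.4 RPKM), and Six4 (15.6) and Nkx6-2 (7.29) were again among the highest.

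**Figure D1:**
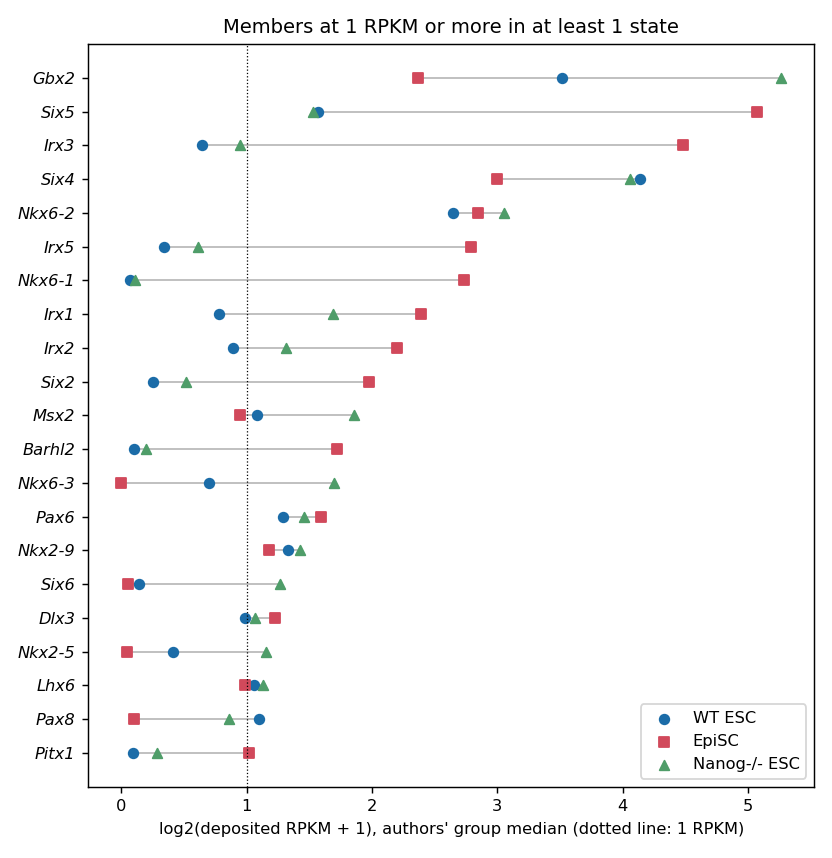
Expression of 21 members that reached 1 RPKM in at least 1 state, on a log2(RPKM + 1) axis, with 1 point for the authors' group median of each state and a grey line over their range. Six5, Irx3, Irx5 and Nkx6-1 have their EpiSC point far to the right of both ESC points, and Gbx2 is highest in Nanog-/- ESCs and lowest in EpiSCs.

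The deposited RPKM of EpiSCs lie above those of WT ESCs for most genes. The median EpiSC to WT ESC ratio was 1.89 over the 9077 genes at 1 RPKM or more in both, a shift of 0.91 on the log2 scale. For Nanog-/- ESCs it was 1.05 over 9496 genes (0.07 on the log2 scale). Differences between states were therefore taken after dividing by this ratio, as log2(scaled RPKM + 1), and a member was called higher or lower where the difference was 1 or more, which is 2-fold on that scale. The pseudocount of 1 understates the change of genes with low values.

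In EpiSCs, 7 of the 58 members (12.1%) were called higher than in WT ESCs, against 10.4% of all genes, and 4 (6.90%) were called lower, against 9.66%. Both shares of the members lie near those of all genes, but most members were under 1 RPKM, where the pseudocount makes a call hard to reach. Among genes at 1 RPKM or more in WT ESCs or EpiSCs, 7 of 21 members (33.3%) were called higher, against 14.9%. In that set 4 members (19%) were called lower, against 13.8%. The difference between these shares was not tested. Without the scaling 9 members were called higher, against 30.1% of all genes, and 3 lower, against 5.78%. Irx3 had the largest difference, from 0.560 RPKM in WT ESCs to 21.3 in EpiSCs (scaled log2 difference 2.98). Its neighbour Irx5 went from 0.269 to 5.91 RPKM (1.70). Six5, which lies beside the myotonic dystrophy kinase gene Dmpk, went from 1.962 to 32.6 RPKM (2.63). Nkx6-1, a factor of motor neuron progenitors and pancreatic beta cells, went from 0.0489 to 5.65 RPKM (1.93). Six2, a factor of kidney progenitors, went from 0.191 to 2.93 RPKM (1.1004), and Barhl2, a neuronal factor, from 0.0723 to 2.30 (1.05). The levels of these genes in EpiSCs span from 2.30 to 32.6 RPKM.

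Among the 4 members called lower in EpiSCs were Six4, Gbx2 and Pax8. Six4 went from 16.6 to 6.96 RPKM (scaled log2 difference -1.91) and Gbx2 from 10.4 to 4.17 (-1.83). Pax8, a factor of thyroid and kidney, was low in WT ESCs at 1.14 RPKM and had 0.0735 in EpiSCs (-1.04). Its difference without scaling was -0.997, just short of the call. Irx1 and Irx2, from 0.715 to 4.24 and from 0.855 to 3.60 RPKM, lay short of the call in the other direction at scaled log2 differences of 0.92 and 0.65. Of the 6 Irx genes 4 reached 1 RPKM in EpiSCs and none in WT ESCs.

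In Nanog-/- ESCs, 3 members (5.17%) were called higher than in WT ESCs, against 1.5% of all genes, and 0 were called lower, against 1.51%. Among genes at 1 RPKM or more in either of these states, 3 of 18 members (16.7%) were called higher, against 2.31%. In that set 0 were called lower, against 2.33%. Gbx2 went from 10.4 to 37.4 RPKM (scaled log2 difference 1.68) and Six6, an eye and hypothalamus factor, from 0.106 to 1.41 (1.08). Six4, from 16.6 to 15.6 RPKM, was not called (-0.15). Nkx6-3 went from 0.629 to 2.24 RPKM (0.95), Irx1 from 0.715 to 2.23 (0.87), Msx2 from 1.12 to 2.61 (0.72) and Nkx2-5 from 0.329 to 1.23 (0.71), all short of the call. The median scaled difference of the 58 members was 0.09, against 0 over all genes, and 45 of them lay above the median of all genes. In EpiSCs the median difference was 0.01 and 30 lay above the median of all genes. The scaling itself sets the all-gene median near 0. Genes at levels as low as those of most members were not compared, so a shift of the members was not tested.

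Markers of the labelled cell types and of other cells moved beside these differences. Nanog itself was at 418 RPKM in WT ESCs, 361 in EpiSCs and 22.3 in knockout ESCs, so the targeted gene is low but not absent in the values labelled as its knockout. Those values come from a column named by a line code that was taken as Nanog-/- ESCs because the other columns are named for WT ESCs and EpiSCs. All 7 naive ESC markers were called lower in EpiSCs, where Nr0b1 was listed at 0. The call of Nanog there (scaled log2 difference -1.12) rests on the scaling, since its deposited levels in WT ESCs and EpiSCs are close. In Nanog-/- ESCs 3 of the 7 naive markers were called lower, and these include Nanog, the targeted gene itself. Of 8 primed markers 2 were called higher in EpiSCs, Fgf5 (4.74 to 219 RPKM) and Fgf8 (6.26 to 77.4), and 0 lower, and the scaled differences of Dnmt3b (-0.55), Lef1 (-0.66) and Sfrp2 (-0.61) lay below 0. Of the 8 primed markers 4 were called lower in Nanog-/- ESCs. In EpiSCs 6 of 8 fibroblast markers were called higher, and so were 4 of 6 mesendoderm markers (summed level 5.70 RPKM for WT ESCs and 171 for EpiSCs). The knockout also had 2 fibroblast markers called higher, Postn (scaled log2 difference 1.00) and Twist2 (1.71). Fibroblast markers summed to 199 RPKM for WT ESCs, 1644 for EpiSCs and 321 for the knockout. Vim alone held 134, 1162 and 231 RPKM of these sums. All marker sums are of deposited RPKM, without the scaling used for the calls. Of 8 primitive endoderm markers, 8 were called higher in Nanog-/- ESCs (16.8 and 134 RPKM) and 5 in EpiSCs (60.4 RPKM), and 1 was called lower in EpiSCs. The other lists were mixed. Of 7 neural markers 1 was called higher and 2 lower in EpiSCs, and 0 higher and 2 lower in Nanog-/- ESCs. Of 5 general pluripotency markers 2 were called lower in EpiSCs. Of 6 trophoblast markers 2 were called higher in EpiSCs and 1 in Nanog-/- ESCs. No fibroblast or primitive endoderm marker was at 0 in any state. In these bulk samples, more cells of a type and more RNA per cell cannot be told apart, and the part of such cells in the differences of the members was not tested.

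Genes linked to the work of the homeodomain factors were followed as a list of 26. In EpiSCs 8 were called higher and 0 lower, beside the 10.4% and 9.66% of all genes. The Meis and Pbx relatives of the TALE class, which bind DNA together with homeodomain factors, gave Pknox2 (0.632 to 21.6 RPKM, scaled log2 difference 2.93), Meis3 (1.86 to 35.3, 2.79) and Pbx2. The LIM-domain group of the list gave the LIM-only genes Lmo2 and Lmo4, and also Ldb2 and Ssbp3. The Eya group, whose proteins bind Six-family factors, gave Eya2 (0.307 to 6.16 RPKM, 1.71). The lowest differences were those of Tle6 (5.50 to 4.60 RPKM, -0.92) and Lmo1 (1.43 to 0.890, -0.72), neither of them called. In Nanog-/- ESCs 0 of the 26 were called in either direction, and the differences ran from -0.47 for Lmo1 to 1.00 after rounding for Lmo2, which went from 0.568 to 2.24 RPKM.

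The contacts of the members come from 3 lists of fragment pairs, 1 for each cell type, in which the replicates are combined. Each pair has a read number and a CHiCAGO score, which weighs the reads against those that chance ligation would give at the same separation. The lowest listed score is 5, so a contact that is absent from a list fell below that score, which does not show that it was missing in the cells. The WT ESC list holds 100492 pairs, the EpiSC list 87369 and the Nanog-/- ESC list 74931. All 825 fragments of the members' contacts begin and end at a HindIII site of GRCm38. Of the 58 protein-coding members, 54 have their annotated gene start inside the baited fragment. The exceptions include Alx1, Gbx2 and Lhx4, with the start under 1 kb outside.

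In the WT ESC, EpiSC and Nanog-/- ESC lists the members had 467, 470 and 367 contacts. Per member fragment the median number of contacts was 5, 4 and 4, and over all baited fragments 3, 3 and 2. The members without any contact numbered 5, 8 and 9 of 61, and 45 had a contact in every list. At 10 or more contacts were 18 members in WT ESCs (29.5%, against 21.4% of all fragments), 19 in EpiSCs (31.1%, against 17.2%) and 13 in knockout ESCs (21.3%, against 16.0%). The highly connected members had a median level under 1 RPKM in each state. In WT ESCs the median RPKM was 0.106 for the 18 members with 10 or more contacts and 0.135 for the other 40, in EpiSCs 0.664 for 18 and 0.280 for 40, and in Nanog-/- ESCs 0.218 for 13 and 0.357 for 45.

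Lhx5, a factor of forebrain and spinal interneurons, headed the WT ESC list with 36 contacts, all of them upstream of the gene. Pax2, of kidney and optic stalk, followed with 33, Pax9, of teeth and vertebrae, with 30, Six5 with 28, Six4 with 22, Pax1, of the sclerotome, with 21, Dlx3, of skin and placenta, with 20, and Irx3 and Pax3 with 17 each. In EpiSCs Lhx5 again had 36, Six4 31, Dlx3 26, Irx3 24, Pax3 22, Pax6os1 21, Pax9 19 and Pax2 and Six5 18 each. In Nanog-/- ESCs the order began with Pax2 (37), Lhx5 (25), Six5 (23), Pax9 (21), Barhl1 (21), Gbx1 and Dlx3 (17 each). Of these, Lhx5, Pax2 and Pax9 were under 1 RPKM in every state, whereas Six4 and Six5 were above it in each.

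**Figure D2:**
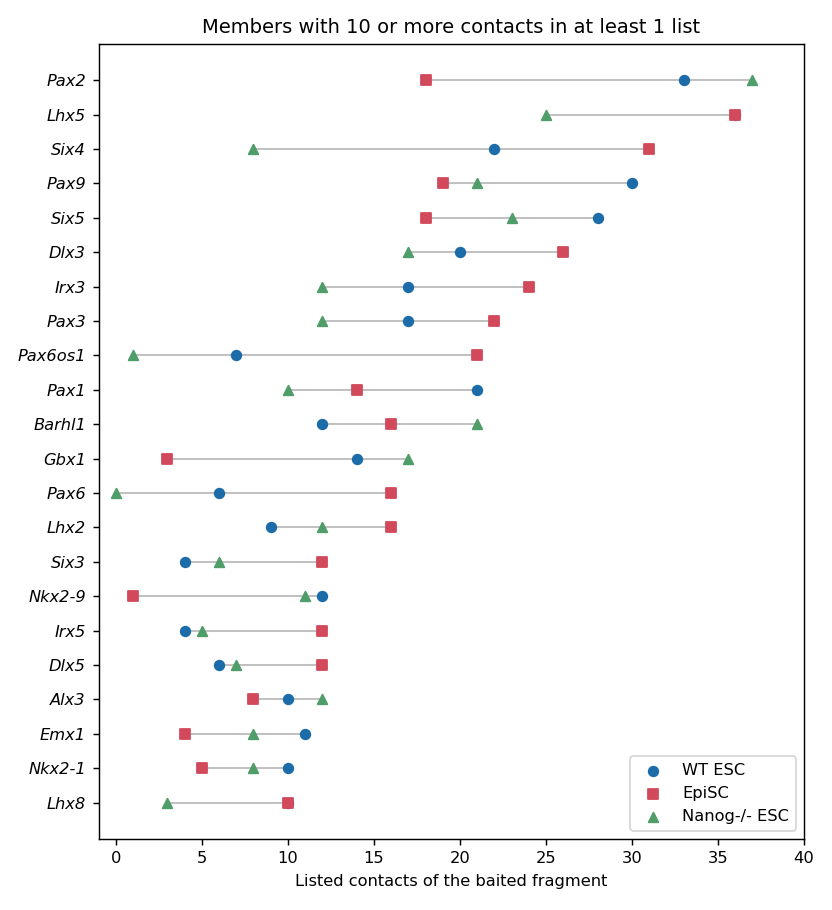
Listed contacts of the baited fragment of 22 members that had 10 or more in at least 1 list, with 1 point per list and a grey line over their range. Pax2 falls from 33 to 18 contacts between WT ESCs and EpiSCs, Six4 spans from 8 to 31, and Dlx3 stays between 17 and 26.

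Member contacts reached farther than those of promoters in general. Distances are between fragment midpoints. The median was 233 kb in WT ESCs, 233 kb in EpiSCs and 154 kb in knockout ESCs, against 139, 141 and 74.1 kb over all contacts within a chromosome. Contacts over 800 kb made up 44 of 465 in WT ESCs, or 9.46% (Wilson 95% interval 7.12% to 12.5%), against 1.30% of all contacts. In EpiSCs they were 35 of 470, or 7.45% (5.40% to 10.2%), against 1.78%. For Nanog-/- ESCs they were 18 of 367, or 4.90% (3.12% to 7.62%), against 0.370%. The intervals cover counting error only and treat contacts as independent, although contacts of neighbouring fragments with 1 bait share reads and position. At least 1 contact over 800 kb was held by 17 of 61 members in WT ESCs (27.9%, against 4.64% of all baited fragments), by 8 in EpiSCs (13.1%, against 4.48%) and by 8 in knockout ESCs (13.1%, against 1.31%). In WT ESCs Pax9 had 9 of them, Dlx5 had 5, and Pax2 and Pax3 had 3 each. Among contacts with at least 10 reads, those over 800 kb were 4.30%, 2.31% and 0% (0 of 192, which allows up to 1.56%) for the members in WT ESCs, EpiSCs and Nanog-/- ESCs, against 0.125%, 0.209% and 0.0311% of all.

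**Figure D3:**
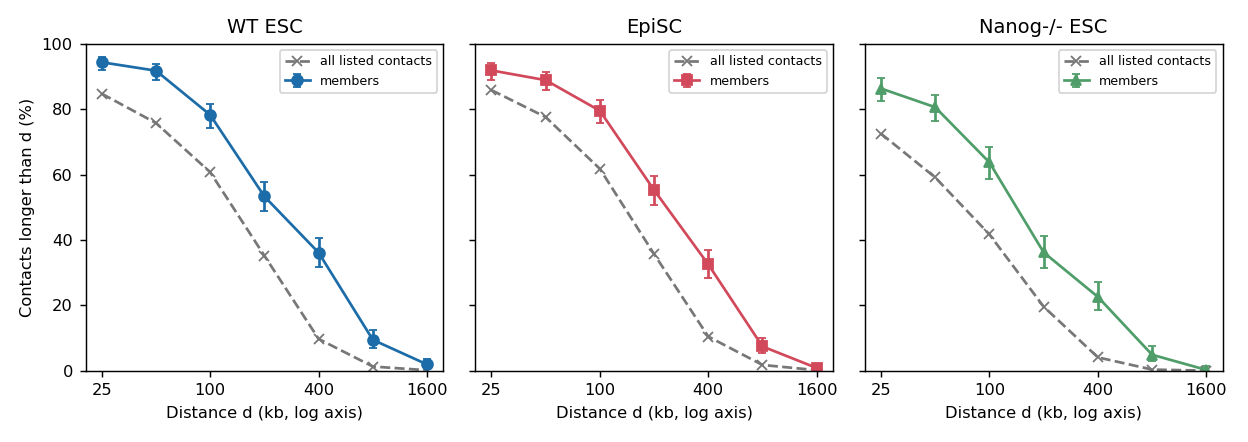
Percentage of contacts within a chromosome that are longer than the distance on the log-scaled x axis, for the members (coloured, with Wilson 95% intervals) and for all listed contacts (grey, dashed), in each list. The members lie above all contacts at each distance drawn, from 25 to 1600 kb, and at 400 kb they have 36.1%, 32.6% and 22.6% against 9.74%, 10.5% and 4.11%.

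Pooled along the members' contacts, baited fragments were sparser than along contacts in general. Along their contacts there were 8.27 baited fragments per Mb in WT ESCs, 6.47 in EpiSCs and 8.39 in knockout ESCs, against 16.0, 13.5 and 18.01 over all contacts. Partner fragments without a bait fell between genes in 63.8% of cases in WT ESCs (58.6% to 68.8%), 60.2% in EpiSCs (55.1% to 65.0%) and 57.7% in knockout ESCs (51.6% to 63.5%), against 38.1%, 39.8% and 34.6% of all such partners. Exons of protein-coding genes were met by 20.7%, 15.0% and 21.5%, against 38.4%, 30.8% and 41.98%. A baited partner was found in 26.6%, 20.4% and 29.2% of member contacts, against 23.1%, 18.4% and 22.0% of all.

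Contacts between members numbered 10, 8 and 11 in the WT ESC, EpiSC and Nanog-/- ESC lists, through 16 different pairs, all on the same chromosome. Of the 61 members, 16 (26.2%), 14 (22.95%) and 18 (29.5%) had such a contact, against 0.519%, 0.396% and 0.439% of the 18674 baited fragments that are neither members nor other developmental regulators. Several members lie in clusters, and the counts were not matched for the distance between genes. Pairs under 100 kb made up 4 of the 10 in WT ESCs, and leaving them out left 6, 6 and 5. In the 3 lists 5 pairs were present throughout, among them Irx3 with Irx5, Irx1 with Irx2, Nkx2-1 with Pax9, and Nkx2-2 with Pax1.

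The Irx genes lie in a pair of clusters of 3. On chromosome 8, the Irx3 fragment (chr8:91798172-91804278) and the Irx5 fragment (chr8:92356599-92358547) joined across 556 kb with 30, 26 and 16 reads in WT ESCs, EpiSCs and Nanog-/- ESCs (scores 37.4, 36.0 and 34.4). Scores were thus similar in the 3 lists, while Irx3 and Irx5 RPKM were far higher in EpiSCs. Values given in threes follow this order of cell types from here on. The fragment beside Irx5, baited for the transcript 4933436C20Rik, gave Irx3 its top EpiSC contact (38 reads, score 50.8), against 24 reads and 28.4 in WT ESCs and 22 reads and 34.4 in Nanog-/- ESCs. Irx3 also reached 253.8 to 425 kb downstream into Fto, the gene whose introns are known to hold Irx3 enhancers, with 3 partner fragments in WT ESCs, 6 in EpiSCs and 3 in knockout ESCs. Those at 422 to 425 kb are in the EpiSC list alone. Contacts of Irx5 with Fto introns were also listed for EpiSCs alone, at 727, 822 and 982 kb, with 4 or 5 reads and scores from 5.1 to 6.25, close to the lowest listed. On chromosome 13, Irx1 and Irx2 joined over 665 kb with 28, 14 and 10 reads in WT ESCs, EpiSCs and Nanog-/- ESCs (scores 35.7, 24.2 and 17.7). The fragments of Irx2 and Irx4 (631 kb) joined in the EpiSC list alone (5 reads, 6.17). The fragment next to that of Irx4, which also holds an Irx4 exon, was met by Irx2 at 640 kb in WT ESCs (5 reads, 5.96) and Nanog-/- ESCs (4 reads, 5.6), so contact of Irx2 with the Irx4 locus was in all lists. Irx3 and Irx6 (872 kb) were listed in Nanog-/- ESCs alone, from 5 reads.

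Of the Six-family genes, Six3, of the forebrain and eye, and Six2 (72.8 kb, chromosome 17) joined in WT ESCs (36 reads, 12.4) and Nanog-/- ESCs (28 reads, 17.0), and not in the EpiSC list. The fragment next to that of Six2, which also holds a Six2 exon, was met by Six3 in all lists, with 50, 19 and 45 reads (14.0, 5.65 and 26.0). Six5 lies in a gene-dense region of chromosome 7, where its top contacts were the fragment of Gm4969 and Fbxo46 at 23.2 kb in WT ESCs (72 reads, 39.99) and EpiSCs (46 reads, 26.2) and Dmpk at 14.6 kb in Nanog-/- ESCs (71 reads, 29.0).

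Nkx and Pax genes joined each other at a pair of loci that also hold a Foxa gene, for a pioneer factor of endoderm. On chromosome 12, Nkx2-1 (chr12:56535398-56537936), the thyroid and lung factor, met Pax9 (chr12:56691719-56695370) over 157 kb with 36 reads in WT ESCs (score 32.2), 28 in Nanog-/- ESCs (39.4) and 9 in EpiSCs (7.65). Nkx2-9 between them met Nkx2-1 with 29 and 16 reads and Pax9 with 32 and 18 reads in WT and Nanog-/- ESCs, and neither contact was listed in EpiSCs. Pax9 met Foxa1 (chr12:57540076-57547561) over 850 kb with 15, 8 and 9 reads (scores 30.7, 18.1 and 20.3). In WT ESCs Foxa1 was also met by Nkx2-9 (931 kb, 5 reads, 7.44) and Nkx2-1 (1007 kb, 4 reads, 5.39). On chromosome 2, Nkx2-2, of ventral neural tube, met Pax1 over 165 kb with 21, 15 and 11 reads (17.4, 10.7 and 12.1), and Pax1 met Foxa2 over 687 kb with 12, 5 and 8 reads (19.6, 8.22 and 13.8). All of Nkx2-1, Nkx2-2, Pax1 and Pax9 were under 1 RPKM in each state, while Foxa2 went from 0.831 RPKM in WT ESCs to 90.5 in EpiSCs.

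**Figure D4:**
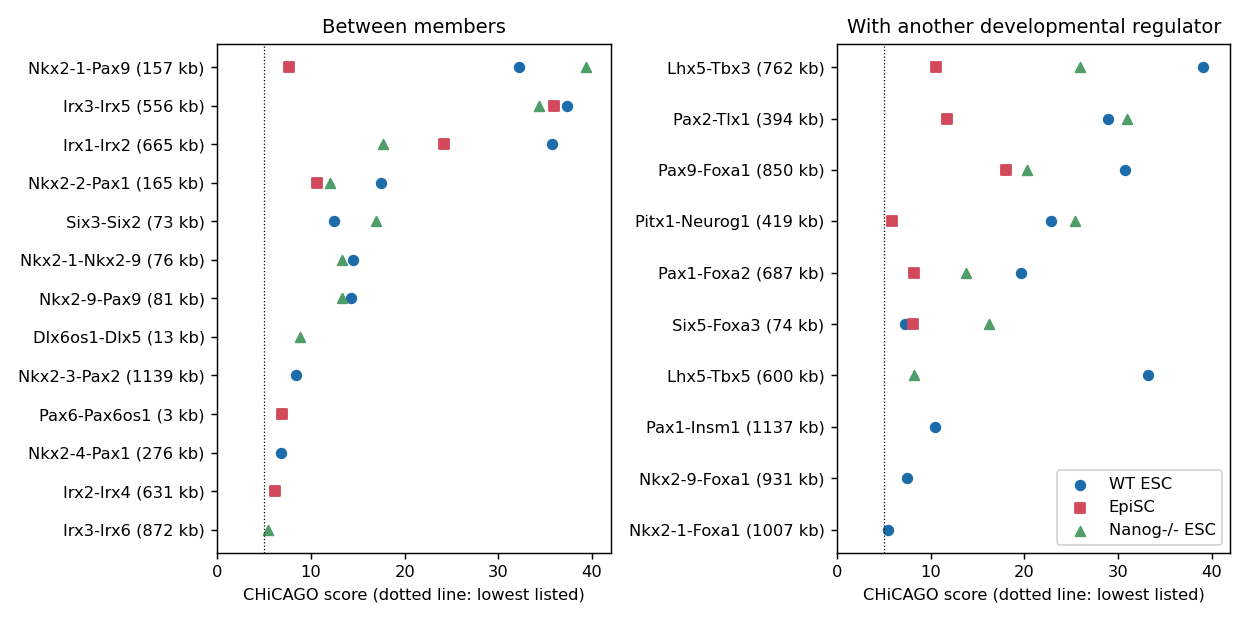
CHiCAGO scores of 13 contacts between members (left) and 10 contacts of members with another developmental regulator (right), with the distance in brackets and 1 point for each list that holds the contact. Irx3-Irx5 has nearly the same score in the 3 lists, whereas Nkx2-1-Pax9, Lhx5-Tbx3 and Pax2-Tlx1 have far lower scores in EpiSCs than in the ESC lists.

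The other developmental regulators were 287 baited fragments, classed by bait name. Their genes are those of the Hox clusters, other homeobox genes, the Sox, forkhead, T-box, GATA, zinc finger and bHLH classes, and developmental ligands. Contacts with them numbered 11, 7 and 8 in the WT ESC, EpiSC and Nanog-/- ESC lists. Of the 61 members, 9 (14.8%) did so in WT ESCs, against 3.35% of all baited fragments, 7 (11.5%) in EpiSCs, against 2.06%, and 7 (11.5%) in knockout ESCs, against 2.53%. Lhx5, Pax1, Pax2, Pax9, Pitx1 and Six5 did so in all 3 lists. Lhx5 (chr5:120431324-120435891) met Tbx3 (762 kb), of limb and heart and also of naive ESCs, with 40, 7 and 17 reads (scores 39.1, 10.6 and 26.0). It met Tbx5 (600 kb), of heart and forelimb, with 27 reads in WT ESCs (33.2) and 7 in Nanog-/- ESCs (8.17), and not in the EpiSC list. The next fragment of Tbx5 had 17 reads in both ESC types (22.1 and 26.5). Pax2 met Tlx1, a homeobox gene of the spleen, over 394 kb with 29, 10 and 21 reads (29.0, 11.7 and 31.0). Pitx1, the hindlimb factor, met the proneural gene Neurog1 over 419 kb with 22, 6 and 18 reads (22.8, 5.91 and 25.4). Six5 met Foxa3 at 73.7 kb with 12, 12 and 13 reads (7.2, 8.14 and 16.3), the shortest of these contacts. In 5 of the 7 contacts present in every list the EpiSC score was the lowest, and Six5-Foxa3 was among the exceptions. The same count was not made over all contacts present in every list, and EpiSCs have 2 lanes against 5 for each ESC type. Among the contacts between members, the EpiSC score was lowest for Nkx2-1-Pax9 and Nkx2-2-Pax1. For Irx1-Irx2 and Irx3-Irx5 the Nanog-/- ESC score was lowest.

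Lhx5, Pax3 and Dlx5 were among the members with other long contacts found in more than 1 list. Lhx5 met Hrk, a gene of apoptosis, over 2262 kb with 14, 7 and 5 reads (29.3, 14.8 and 7.14). In EpiSCs 10 partners of Lhx5 fell in Rbm19, 238.6 to 306 kb upstream, against 1 in WT ESCs and 0 in Nanog-/- ESCs. Pax3, of neural crest and muscle, met Fev, a factor of serotonergic neurons, over 3311 kb with 10 reads in WT ESCs (27.4) and 5 in EpiSCs (9.23), and a fragment with Mir375 over 3299 kb in WT ESCs (7 reads, 17.2). No contact of Pax3 over 800 kb was listed in Nanog-/- ESCs. The strongest Pax3 contact was Sgpp2 at 113 kb, with 54, 34 and 28 reads (44.9, 25.8 and 32.9). Dlx5, a factor of face and limb, reached downstream into and past Dync1i1, a gene known to hold Dlx5 enhancers. Dlx5 had 5 contacts over 800 kb in WT ESCs, 9 in EpiSCs and 4 in knockout ESCs. Its top WT ESC partner, at 877 kb, holds a Dync1i1 exon (10 reads, 12.47). Its farthest partner, at 1243 kb, was in all 3 lists.

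**Figure D5:**
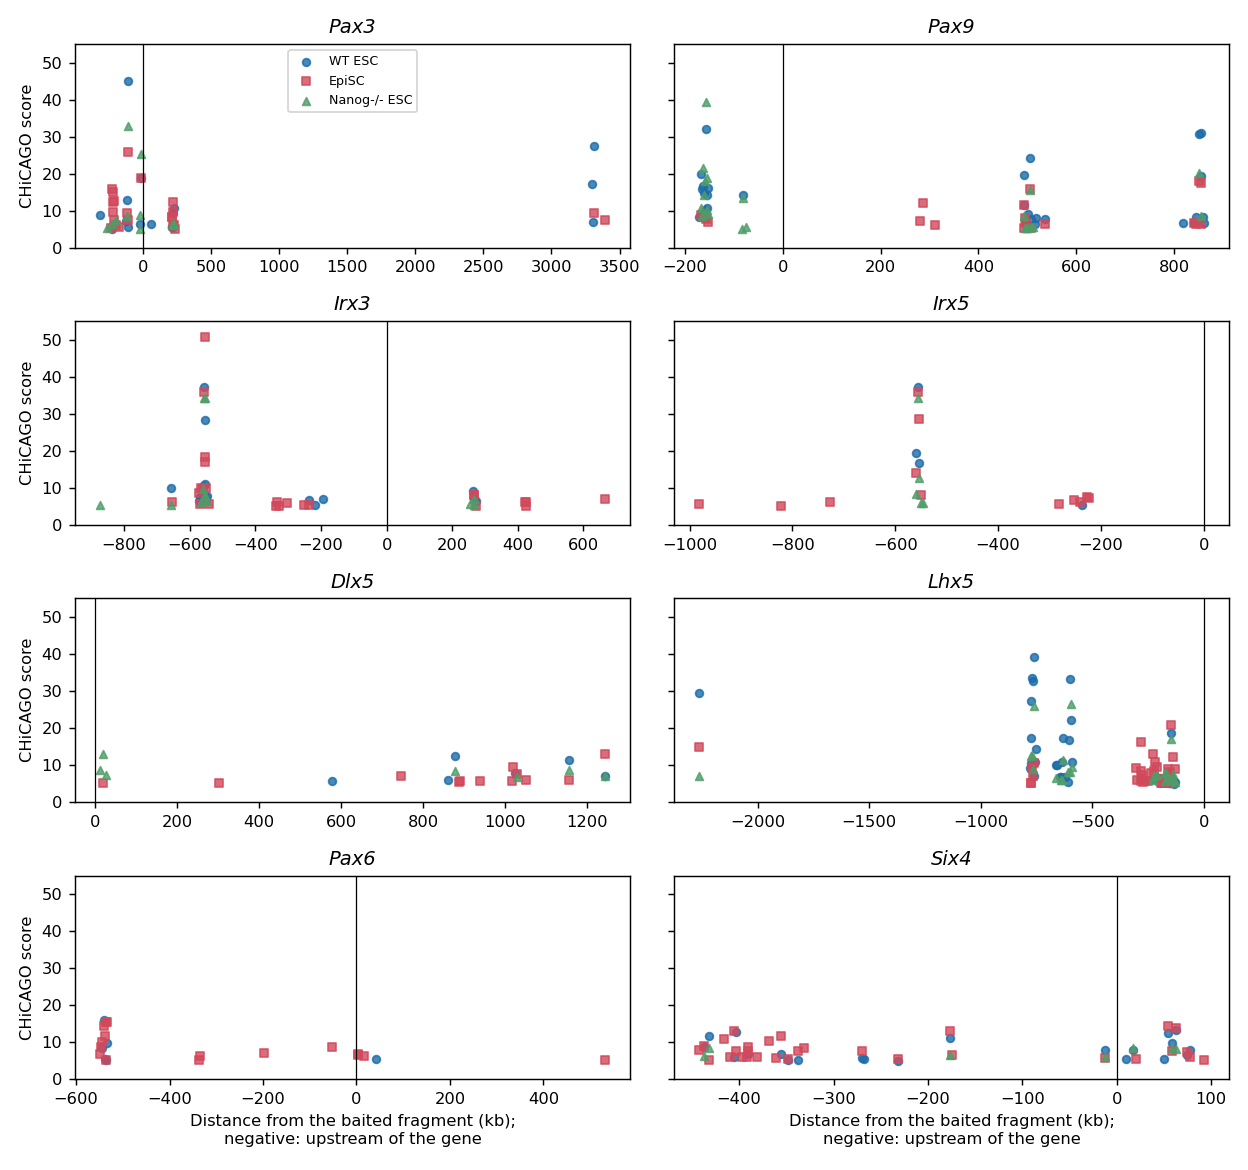
CHiCAGO score against distance for the contacts of 8 members, with negative distances upstream of the gene and 1 point per contact drawn. All partners of Dlx5 lie downstream and those of Irx5 upstream in every list, and Pax6 has no point for Nanog-/- ESCs.

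Pax6, the eye and forebrain regulator, and its antisense transcript Pax6os1 lie on baited fragments 2.62 kb apart and both met Wt1, so they are not separate observations. Pax6 had 6 contacts in WT ESCs, 16 in EpiSCs and 0 in knockout ESCs, and Pax6os1 had 7, 21 and 1. Pax6 met fragments of Wt1, the kidney and gonad factor, 533.6 to 538 kb upstream, with 3 fragments in WT ESCs and 4 in EpiSCs, at scores up to 9.67 and 15.5. It also met the fragment baited for AI314831, which holds the start of Wt1, at 541 kb, with 11 reads in WT ESCs (16.1) and 8 in EpiSCs (14.4). Partners were classed by bait name, so this contact is not counted among those with other developmental regulators. Pax6 RPKM was 1.45 in WT ESCs, 2.02 in EpiSCs and 1.74 in knockout ESCs, and its expression was not called changed in either.

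The contact number was called changed where it differed by at least 5 contacts and 2-fold. In EpiSCs 7 members (11.5%) had more contacts than in WT ESCs, against 5.05% of all baited fragments, and 4 (6.56%) had fewer, against 10.6%. Those with more were Pax6os1, Pax6, Irx5 (4 and 12), Six3 (4 and 12), Dlx5 (6 and 12), Alx4 (1 and 7) and Nkx3-2 (4 and 9), with the WT ESC number first. Those with fewer were Nkx2-9 (12 and 1), Gbx1 (14 and 3), Emx1 (11 and 4) and Nkx2-1 (10 and 5). In Nanog-/- ESCs 0 members had more, against 1.66%, and 7 (11.5%) had fewer, against 10%. Among them were Six4 (22 and 8), Pax1 (21 and 10), Lhx8 (10 and 3), Pax6, Pax6os1 and Msx3 (7 and 2). The lists differ in size, and with each reduced to its 74931 best pairs, those counts became 6 more (9.84%, against 5.94% of all baited fragments) and 2 fewer (3.28%, against 6.85%) in EpiSCs. In Nanog-/- ESCs they became 2 more (3.28%, against 4.08%) and 3 fewer (4.92%, against 4.24%).

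The members called higher or lower in expression had contact numbers that differed in both directions. Of those called higher in EpiSCs, Irx3 had 17 contacts in WT ESCs and 24 in EpiSCs, and Irx5 had 4 and 12. Six5 had 28 and 18, Nkx6-1 had 6 and 2, Six2 had 7 and 5, and Barhl2 had 2 and 0. Of those called lower, Six4 had 22 and 31, Pax8 had 3 and 3, and Gbx2 had 2 and 2. Of those called higher in Nanog-/- ESCs, Gbx2 had 2 contacts in WT ESCs and 3 in Nanog-/- ESCs, and Six6 had 0 and 0.

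Of the 467 WT ESC contacts, 212 (45.4%, Wilson 95% interval 40.9% to 49.9%) recurred in EpiSCs, against 39.6% over all baits, and 221 (47.3%, 42.8% to 51.9%) in Nanog-/- ESCs, against 41.8%. Contacts found again had more WT ESC reads than the others, with medians of 13 and 9 for EpiSCs and 15 and 8 for Nanog-/- ESCs, so the shares move with read number. In all, 837 different member contacts were listed and 131 of them (15.7%) were in all 3 lists, against 14.4% of all contacts. Dlx3 had 19 of its 20 WT ESC contacts also in EpiSCs, Six4 18 of 22 and Lhx5 17 of 36. Nkx2-9 had 1 of 12 in EpiSCs and 8 of 12 in Nanog-/- ESCs, and Gbx1 had 2 and 9 of 14.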

How the data were processed

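PCHi-C, RNA-seq and ChIP-seq samples are labelled in the series. By the study's methods the authors mapped and filtered PCHi-C reads with HiCUP, combined the replicates, and deposited 1 list per cell type with a read number and a CHiCAGO score for each pair of HindIII fragments. Both numbers were read as score values set by the authors, since the read numbers are combined over replicates. The authors reduced RNA-seq to the median RPKM of each group and deposited that value. The submitters' processing notes name Trim Galore, TopHat, DESeq2 and Bowtie 1.1.0 without roles, and the build GRCm38. The RNA-seq library kit does not mark strand, so reads of overlapping opposite transcripts cannot be told apart. The table's group labelled BT12 was taken as Nanog-/- ESCs because the other groups are named. Columns with the authors' fold changes and p-values were not used.

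Each fragment pair entered once, with the higher of its scores where both ends were baits. Fragments were annotated with GENCODE M21 protein-coding genes and promoters with RefSeq (GRCm38.p6), where 42 members matched by symbol and 36 of the windows lie in the baited fragment. Members and gene lists were chosen with earlier results of these data known. By the rule for named genes every member could be named, and full values went to those with the largest called differences, the highest RPKM, the most contacts, the largest change in contact number, and the best or longest contacts between members. Contacts with other partners were chosen for description after their values were seen. Some members enter the counts but are not reported here by name. No test was run, since each cell type has 1 combined value, the depth of the libraries is unknown, and precision is limited to counting error. Wilson intervals are at 95%. The self-test on simulated lists and RPKM checked counts, distances and calls. Alternatives were another scaling, pseudocount, filter, score, read or distance minimum, and lists of equal size. Python 3.11.15, numpy 2.4.6, pandas 2.3.3, scipy 1.17.1, pysam 0.24.0, samtools 1.23.1 and matplotlib 3.10.9 were used.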

Additional observations from a re-analysis of the deposited data

How the results depend on the processing

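Each list and each RPKM column is 1 combined value per cell type, so no replicate could be left out. No paired analysis was possible because the columns carry no replicates. Dlx1as, Dlx6os1 and Pax6os1 have no RPKM, so they do not enter the expression counts. They do enter the contact counts, and leaving them out of those was not run. Pax6os1 is among the members called changed in contact number in both comparisons. Dlx1as and Dlx6os1 are among those with a contact over 800 kb in WT ESCs. Pax6 with Pax6os1 (2.62 kb, EpiSCs) and Dlx5 with Dlx6os1 (13.4 kb, Nanog-/- ESCs) count as contacts between members. Of 76 alternatives of the main values, 51 stayed within 1.5 times a count or within the counting interval of a share or median, and 25 moved. Of 28 alternatives of single called differences none changed sign, and Pax8 in EpiSCs missed the call without scaling.

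With a pseudocount of 0.1 in place of 1, members called higher and lower in EpiSCs became 15 (25.9%, against 16.4% of all genes) and 12 (20.7%, against 15.3%), and those higher in Nanog-/- ESCs 11 (19%, against 4.96%), since differences between values under 1 RPKM then count. At a score of at least 7 the median contacts per member became 2, 1 and 1 in WT ESCs, EpiSCs and Nanog-/- ESCs, the share over 800 kb in WT ESCs 12.6%, and the WT ESC contacts also listed 57.5% for EpiSCs and 64.8% for Nanog-/- ESCs. With at least 10 reads the median distance became 140 kb, 118 kb and 75.7 kb, and the share over 800 kb 4.30%, 2.31% and 0%, so the long contacts rest on few reads. Without pairs under 100 kb, contacts between members became 6 in WT ESCs and 5 in Nanog-/- ESCs. Counting a partner fragment within 10 kb as the same raised the WT ESC contacts found again to 71.5% in EpiSCs and 72.4% in Nanog-/- ESCs. With lists of equal size the members with fewer contacts became 2 in EpiSCs (3.28%, against 6.85% of all baited fragments) and 3 in Nanog-/- ESCs (4.92%, against 4.24%), and those with more in Nanog-/- ESCs 2 (3.28%, against 4.08%). At a difference of 10 contacts, 2 members (3.28%) had more in EpiSCs, against 1.55%, 2 had fewer there, against 3.81%, and 2 had fewer in Nanog-/- ESCs, against 2.91%.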

Other observations

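Some far partners of the members without a bait also lay in homeobox or other developmental genes, each in a single list and from few reads. In WT ESCs, Dlx1as met a fragment with an exon of Hoxd11 over 3139 kb (4 reads, score 7.28), and Lhx2 met a fragment with an exon of Lmx1b, a LIM-homeodomain gene, over 4707 kb (4 reads, 9.18), the longest contact of a member within a chromosome. In EpiSCs, Nkx3-2 met a fragment with an exon of Msx1 over 3941 kb (4 reads, 6.81), and Pax3 met Wnt10a, a ligand gene, over 3392 kb (4 reads, 7.36). Between baits, Nkx2-3 met Pax2 over 1139 kb in WT ESCs alone (5 reads, 8.42), while the fragment next to that of Nkx2-3, baited for Gm20467, met Pax2 in WT ESCs (8 reads, 9.2) and in EpiSCs (8 reads, 13.6). Pax1 met Insm1, a neuroendocrine factor, over 1137 kb in WT ESCs alone (6 reads, 10.4).

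Contacts between chromosomes numbered 2 of the 467 member contacts in WT ESCs, against 786 of 100492 over the whole list. For members they numbered 0 in EpiSCs and 0 in Nanog-/- ESCs, against 388 and 346 over those lists. A WT ESC contact of this kind belonged to Lhx3. Lhx3 on chromosome 2 met chr5:52127002-52129321, between genes and 62.4 kb from the start of Dhx15 (5 reads, score 24.9). It has no replicate value in the list.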
